A study of Mus musculus with 3 samples.

Results

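The cadherin and protocadherin genes were followed through palatal fusion in cultured mouse palate. Members were the genes with a probe set that names 1 gene and whose symbol is Cdh followed by a digit or begins with Pcdh, and the desmosomal cadherins were left out. There were 56 such genes, 21 cadherins and 35 protocadherins, out of 18193 genes on the array, and they were read by 101 probe sets. For a gene with several probe sets, the one whose mean over the arrays was highest stood for it. Tissue came from ICR mouse fetuses at E14, whose maxillae were kept in suspension culture in BGJB medium with penicillin and streptomycin, and no genetic change is named. The labels give female, while the paper names mature female ICR mice and gives no sex for the fetuses. The labels give the edge of the palatal processes for each stage, and the paper adds where it was cut. The array before fusion held the edge of palatal shelves that had not met after 5 h in culture, the array during fusion held median tissue with the epithelial seam at 24 h, and the array after fusion held median tissue at 60 h, once the seam was gone. Each stage had 1 Mouse Genome 430 2.0 array, so that no test between stages is possible and no p-value is given, and stage, hours in culture and piece of tissue cannot be told apart. The methods give 5 samples per stage and do not state whether an array held 1 of them or a pool.

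Classical cadherins are calcium-dependent adhesion proteins of the cell surface. Their outer domains bind cadherins of the neighbouring cell, and their tails bind β-catenin and p120-catenin, which with α-catenin tie the junction to actin. Type I cadherins (*Cdh1* to *Cdh4* and *Cdh15*) carry strong adhesion of epithelia, mesenchyme and muscle, whereas type II cadherins such as *Cdh11* of mesenchyme and *Cdh5* of endothelium are found in more restricted sets of cells. Protocadherins adhere more weakly and act mostly in cell recognition and sorting. The clustered ones lie in the neighbouring α, β and γ clusters, and the non-clustered ones include the δ1 and δ2 groups. In the palate, epithelial cells of both shelves adhere to each other through cadherins before the seam between them is lost.

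Signals are MAS5 intensities on a linear scale. Scaling to a common trimmed mean multiplied the deposited values by 1.11 before, 0.918 during and 0.986 after fusion. The 95th percentile of 83 probe sets for sensory receptors was used as the floor, 19.4 before, 13.3 during and 14.6 after fusion, and 56.9% to 65.8% of probe sets lay above it. A ratio with 1 side under the floor is a bound, written as "at least", and a ratio with both sides under it is not given. Of the 56 members, 38 were above the floor before fusion, 39 during and 39 after it. In all 44 were above it on at least 1 array, and 32 on each of the 3. The other 12, *Cdh7*, *Cdh16*, *Cdh17*, *Cdh18*, *Pcdh15*, *Pcdhb1*, *Pcdhb4*, *Pcdhb6*, *Pcdhb11*, *Pcdhb13*, *Pcdhb14* and *Pcdhb18*, were under the floor on each array. *Cdh8* was above the floor only during fusion (14.5) and has no ratio. Markers of the labelled tissue were present: all 12 markers of palatal mesenchyme and all 15 of epithelium were above the floor on each array. In bulk tissue, fewer cells of a type and less RNA per cell cannot be told apart.

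RefSeq promoter windows (GRCm38.p6, the 250 bases before the annotated start) were at hand for 20 of the 56 members. Windows are shown for *Cdh26*, the only member over 2-fold higher after than before fusion, for *Pcdh8*, the only one over 2-fold higher during than before fusion, and for *Pcdh17*, lower at both later stages. They are chr2:178430265-178430514 on the + strand, chr14:79771313-79771562 on the - strand and chr14:84443313-84443562 on the + strand, and each reads 5′ to 3′ towards the gene with capitals for a match to a searched motif.
Cdh26: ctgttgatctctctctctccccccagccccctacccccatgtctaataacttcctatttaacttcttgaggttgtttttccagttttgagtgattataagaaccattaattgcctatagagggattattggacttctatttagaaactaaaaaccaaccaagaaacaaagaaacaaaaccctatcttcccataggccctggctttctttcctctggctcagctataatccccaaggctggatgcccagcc
Pcdh8: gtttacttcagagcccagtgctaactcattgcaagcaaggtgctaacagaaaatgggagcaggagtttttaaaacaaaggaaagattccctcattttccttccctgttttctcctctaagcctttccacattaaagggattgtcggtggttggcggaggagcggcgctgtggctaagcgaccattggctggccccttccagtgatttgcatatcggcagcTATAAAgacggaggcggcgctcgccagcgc
Pcdh17: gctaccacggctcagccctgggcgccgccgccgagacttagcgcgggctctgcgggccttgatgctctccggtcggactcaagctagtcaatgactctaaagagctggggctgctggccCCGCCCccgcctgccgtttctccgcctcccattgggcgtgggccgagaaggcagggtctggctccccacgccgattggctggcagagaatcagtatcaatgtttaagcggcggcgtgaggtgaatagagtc
The *Cdh26* window held no CpG and was 42.8% G and C, with no match to any of the 4 motifs searched. The *Pcdh8* window had a TATA box (TATAAA) 30 to 25 bases before the start, 11 CpG and 51.2% G and C. The *Pcdh17* window had a GC box on the other strand (CCGCCC) 131 to 126 bases before the start, 21 CpG and 64.8% G and C. Over 32851 windows of the genome the median was 52.4% G and C (quartiles 45.2% and 61.2%) and 6 CpG, and 7.87% of windows held none. Searched on both strands, TATAAA or TTTATA stood in 12.4% of all windows and in 2 of the 20 of members, *Pcdh8* and *Pcdh15*. GGGCGG or CCGCCC stood in 32.7% of all and in 8 of the 20, *Cdh6*, *Cdh8*, *Cdh15*, *Cdh22*, *Pcdh10*, *Pcdh17*, *Pcdh18* and *Pcdh19*. The Snail-type E-box CAGGTG or CACCTG stood in 17.2% of all and in *Cdh7* and *Pcdh15*, and the forkhead motif GTAAACA or TGTTTAC in 3.17% of all and in none of the 20. None of these motifs contains another. A match describes these letters and does not show that a factor binds there.

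Against the array before fusion, members were lower more often than higher. During fusion 9 of the 41 members with a ratio were over 2-fold lower (22.0%, against 3.36% of all 13217 genes with a ratio) and 1 was higher (2.44%, against 5.78%). After fusion 9 of 42 were lower (21.4%, against 9.92% of 13595 genes) and again 1 was higher (2.38%, against 12.9%). Between the 2 later arrays 4 of 41 members were lower after than during fusion (9.76%, against 5.13% of 14213 genes) and 2 were higher (4.88%, against 8.82%). The median log2 ratio of the members was -0.37 during and -0.35 after fusion to before, where that of all genes was -0.02 and -0.07, and it was 0.06 for after over during, where that of all genes was -0.04. These are counts over 2 arrays each, and the comparisons share arrays. Members counted here had passed the floor on at least 1 of the 2 arrays. Among the 34 above it on both, 7 were over 2-fold lower during fusion and 6 after it, against 2.72% and 9.96% of all genes above it on both. Across the alternatives the median of all genes shifted by -0.29 to 0.27 during and by -0.40 to 0.18 after fusion, and the members' median minus that of all genes ran from -0.39 to -0.27 during and from -0.37 to -0.24 after fusion. Of the 17 members past 2-fold in any comparison, only *Pcdh17*, *Cdh10* and *Cdh9* were over 2-fold lower than before fusion at both later stages.

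**Figure D1:**
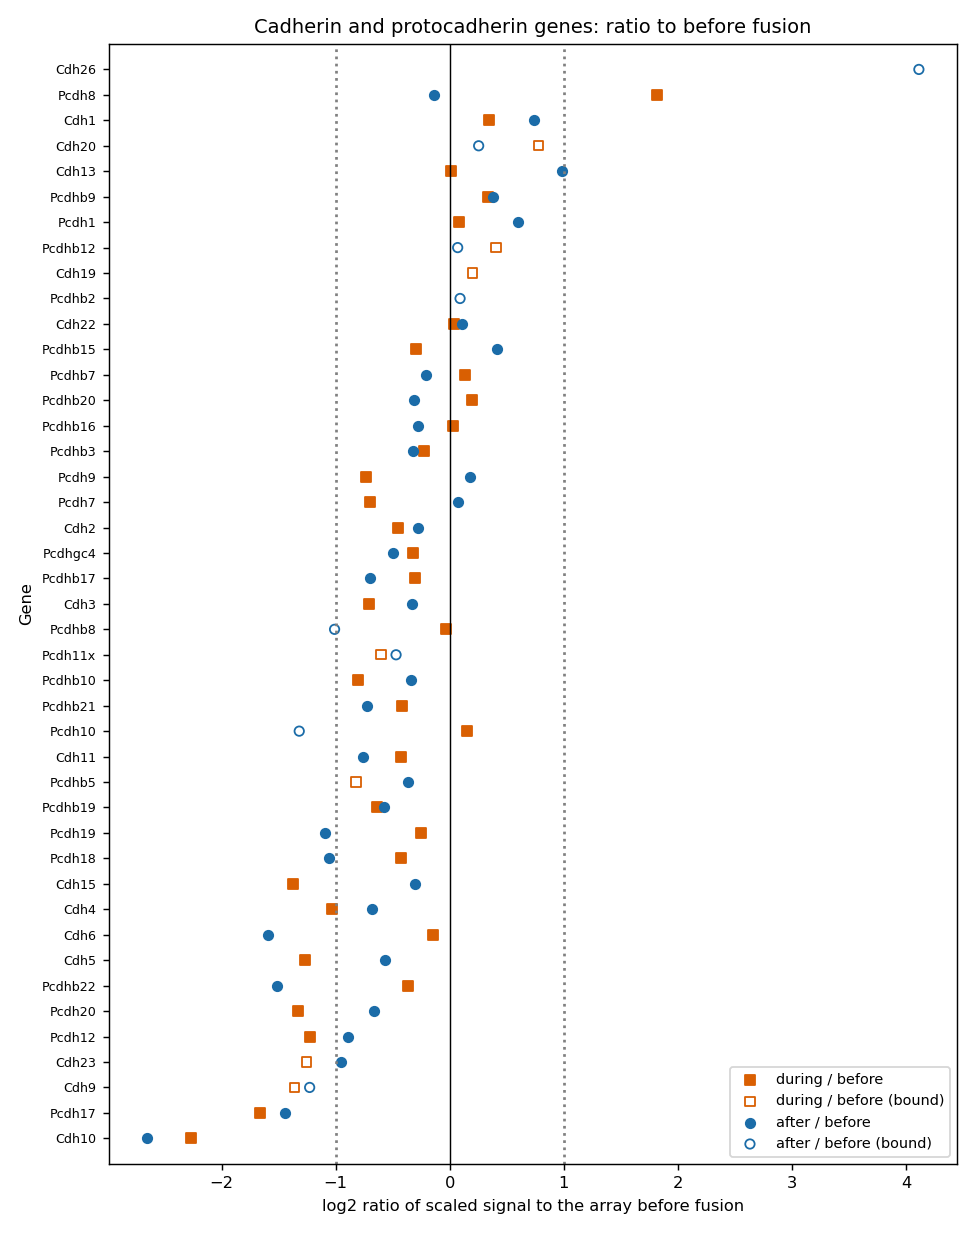
Log2 ratio of scaled signal to the array before fusion (horizontal axis) for the members with a ratio (vertical axis), squares for during and circles for after fusion, 1 array per stage. Open symbols are bounds, dotted lines mark 2-fold, and *Cdh26* after fusion (4.11) and *Pcdh8* during fusion (1.82) are the only points to the right of the upper line.

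The only measure of error on these arrays is how far probe sets for the same gene differ. Over all genes with several probe sets above the floor, the SD of the log2 ratio between them was 0.37 during and 0.46 after fusion relative to before, and 0.44 between the later arrays. Over the members alone the SD was 0.31 (12 genes), 0.60 (10 genes) and 0.53 (12 genes) in the same order. This SD does not hold the variation between embryos. Of 16 members with at least 2 probe sets giving a ratio, 14 had the same sign in all of them during fusion and 12 after it, and 8 of 14 did between the later arrays.

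Of the 5 type I cadherins, all were above the floor on each array. *Cdh1*, E-cadherin of epithelium, had a signal of 1279 before fusion, 1623 during and 2138 after it. It was 1.27-fold higher during and 1.67-fold higher after than before fusion (log2 0.34 and 0.74), and the log2 ratio stayed above 0 under the 9 alternatives, from 0.06 during fusion with the poly-A controls to 0.92 after it with the signals as deposited. So *Cdh1* was highest on the last array, without reaching 2-fold. It was read by 1 probe set. Its log2 ratios of 0.34 (during over before) and 0.40 (after over during) were below the SDs between probe sets of 0.37 and 0.44. That of 0.74 (after over before) was above the SD of 0.46. The epithelial markers beside *Cdh1* had a summed signal of 12277 before, 22594 during and 30781 after fusion, and median log2 ratios of 0.63 and 1.47. Of 15, 6 were over 2-fold higher during fusion (against 5.78% of all genes) and 10 after it (against 12.9%), none lower. The ratios of *Cdh1* were below both medians. *Cdh3*, P-cadherin of basal epithelium, had signals of 97.98, 60.2 and 78.1 and was 1.63-fold lower during fusion and 1.25-fold lower after it, and its log2 ratio to before fusion stayed below 0 under the 9 alternatives. The epithelial keratin genes *Krt5* and *Krt14* were 3.75-fold and 2.79-fold higher during fusion, whereas *Trp63*, a transcription factor of basal epithelium, was 1.45-fold lower. Of the 15 epithelial markers 2, *Trp63* among them, were below 0 during fusion. *Cdh3* had the sign of these 2 and not of the keratins or the other markers. The part of epithelial cell share in either cadherin was not tested.

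*Cdh2*, N-cadherin of mesenchyme, nerve and muscle, had a signal of 498.6 before fusion, 364.1 during and 412.6 after it, 1.37-fold and 1.21-fold lower than before. Its other probe set had 153.9, 98.2 and 110.2, with log2 ratios of -0.65 and -0.48. Both probe sets were thus lowest during fusion, by less than 2-fold. *Cdh4*, R-cadherin, had signals of 58.5, 28.6 and 36.5 and was 2.05-fold lower during fusion, but its other measured probe set, under the floor before fusion, was higher (log2 at least 0.45). The ratio was under 2-fold with the signals as deposited (log2 -0.76), with the hybridization controls (-0.92) and with the median over its measured probe sets (-0.29). *Cdh15*, M-cadherin of muscle precursors, had signals of 47.9, 18.5 and 38.9. It was 2.60-fold lower during than before fusion and 2.11-fold higher after than during fusion, so that before and after differed by 1.23-fold. The higher value after fusion passed 2-fold under 5 of the 9 alternatives. The skeletal muscle markers had summed signals of 1535, 453.2 and 234.4. Of these, 8 of 10 were over 2-fold lower during fusion (against 3.36% of all genes) and 9 of 11 after it (against 9.92%). Among the 16 listed, 5 (*Myf5*, *Myf6*, *Myh8*, *Tnnt3* and *Chrnd*) were never above the floor, and *Myod1* was under it at both later stages. *Cdh15* was over 2-fold lower during fusion, as 8 of 10 of these markers were. After fusion it was lower by less than 2-fold, with a log2 ratio of -0.30 where their median was -2.08.

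**Figure D2:**
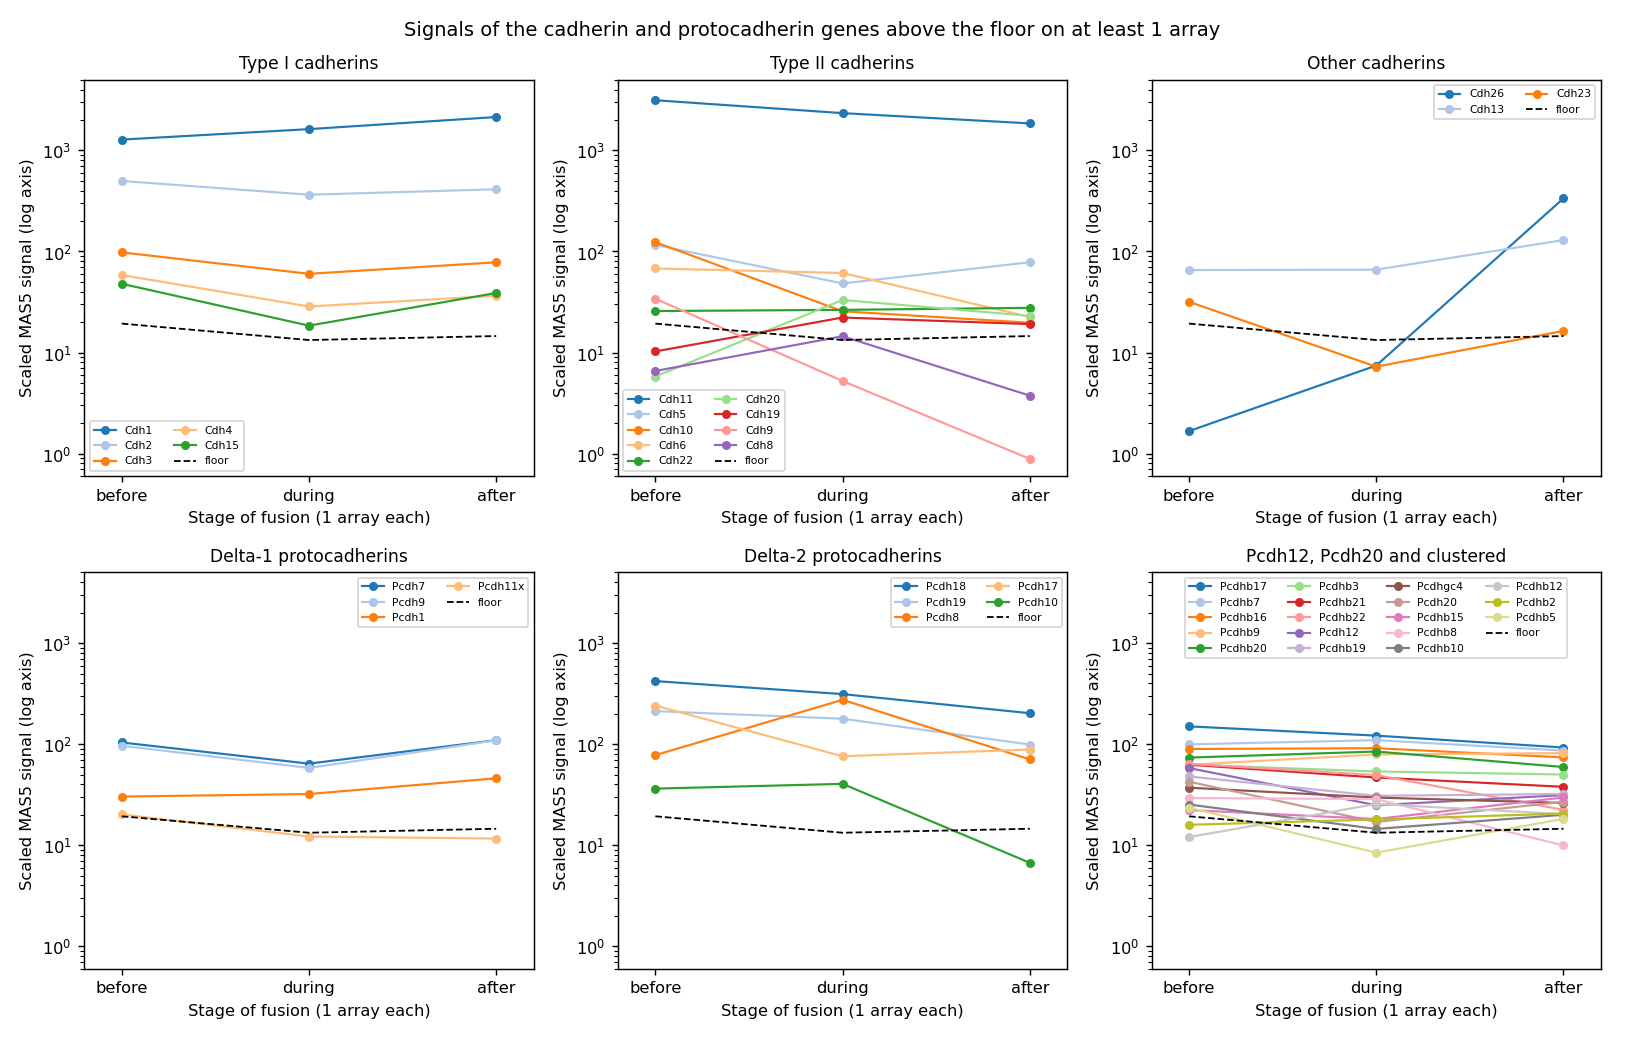
Scaled MAS5 signal (log axis) of the 44 members above the floor on at least 1 array, by stage of fusion (1 array each), with a panel per group. The dashed line is the floor; *Cdh26* crosses it between the arrays during and after fusion, *Pcdh8* peaks during fusion, and lines of different genes are not comparable in height.

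Among the 11 type II cadherins, 9 passed the floor at some stage. During fusion 3 of the 8 with a ratio were over 2-fold lower, against 3.36% of all genes. After fusion 3 of 7 were, against 9.92% of all genes. None was over 2-fold higher at either stage, except for 1 during fusion with the signals as deposited. Over all genes 5.78% were higher during and 12.9% after fusion. *Cdh11*, the cadherin of mesenchyme and osteoblasts, had a signal of 3134 before fusion, 2337 during and 1849 after it, 1.34-fold and 1.69-fold lower. Its other probe set had 210.3, 165.9 and 125.1, with log2 ratios of -0.34 and -0.75 beside -0.42 and -0.76 for the first. Both probe sets stepped down at each stage, and the ratio passed 2-fold after fusion only with the poly-A controls (log2 -1.14). The 12 markers of palatal mesenchyme had summed signals of 21373, 13670 and 13212, of which *Col3a1* alone gave 8059, 6630 and 9224. Of these 12, 5 were over 2-fold lower during and 9 after fusion, against 3.36% and 9.92% of all genes, with medians of -0.66 and -2.03. The osteoblast markers went the other way, with all 6 over 2-fold higher after fusion (against 12.9% of all genes) and a median of 2.46. *Cdh11* therefore lay with the mesenchymal list in sign and closer to 0 than its median. The part of either cell type in it was not tested.

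*Cdh6*, a type II cadherin of kidney and neural crest, had signals of 67.9 before, 61.3 during and 22.5 after fusion. It was 1.11-fold lower during fusion and 3.02-fold lower after it, and its other probe set had 44.6, 36.8 and 28.3 (log2 -0.28 and -0.66). Between the later arrays *Cdh6* was 2.72-fold lower after than during fusion. The difference after fusion was over 2-fold under all 9 alternatives, though only the first probe set passed 2-fold by itself. *Cdh10*, best known from brain, had 123.7, 25.6 and 19.7 and was 4.83-fold lower during fusion and 6.27-fold lower after it, and it ranked 12113 of 12124 genes in the first of these ratios. A dimmer probe set of it was at 28.0 before fusion and under the floor later, at least 2.10-fold lower during and at least 1.92-fold lower after fusion, and 2 more were never above the floor. *Cdh9*, also of brain, had 34.1 before fusion and was under the floor later (5.23 and 0.888), at least 2.56-fold and at least 2.34-fold lower. Of 9 neuron markers with a ratio to before fusion, 3 were over 2-fold lower during fusion (against 3.36% of all genes) and 1 was higher (against 5.78%). After fusion the list held 2 lower (against 9.92%) and 2 higher (against 12.9%), and its part in *Cdh9* and *Cdh10* was not tested. *Cdh20* had 5.80, under the floor, and then 33.2 and 23.1, which is higher by at least 1.71-fold and then 1.19-fold. *Cdh19*, a gene of Schwann cell precursors, had 10.3, 22.2 and 19.1 and was at least 1.15-fold higher during fusion, and *Cdh22* had 25.8, 26.5 and 27.7. The values of *Cdh20* and *Cdh19* are lower bounds and do not show how far the signals rose above them. Of 8 markers of Schwann cells and crest glia, 1 was over 2-fold lower at each later stage (*Foxd3* during and *Sox10* after fusion), and none was higher. Of all genes 3.36% were lower during and 9.92% after fusion.

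*Cdh5*, VE-cadherin of endothelium, had a signal of 116.0 before fusion, 48.3 during and 78.2 after it, 2.40-fold lower during fusion and 1.48-fold lower after it than before. *Pcdh12*, a protocadherin of endothelium that is not clustered, had 58.1, 24.9 and 31.4, 2.33-fold and 1.85-fold lower. The 2 endothelial genes were thus both lowest during fusion and both past 2-fold only there. The 16 endothelial markers, all above the floor on each array, had summed signals of 3885, 1770 and 1765, of which *Aplnr* alone gave 1613, 424.9 and 252.2. Of these 6 were over 2-fold lower during fusion, against 3.36% of all genes, and 2 after it, against 9.92%. The count after fusion was thus near the share over all genes. None was higher, and the medians were -0.75 and -0.70. *Tie1* was 2.40-fold lower during fusion and 1.78-fold lower after it, and *Pecam1* 1.73-fold and 1.58-fold. The ratios of *Cdh5* and *Pcdh12* during fusion were just under 2-fold with the deposited signals (log2 -0.98 and -0.94). Each has further probe sets under the floor on all 3 arrays. The part of endothelial cell share was not tested.

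**Figure D3:**
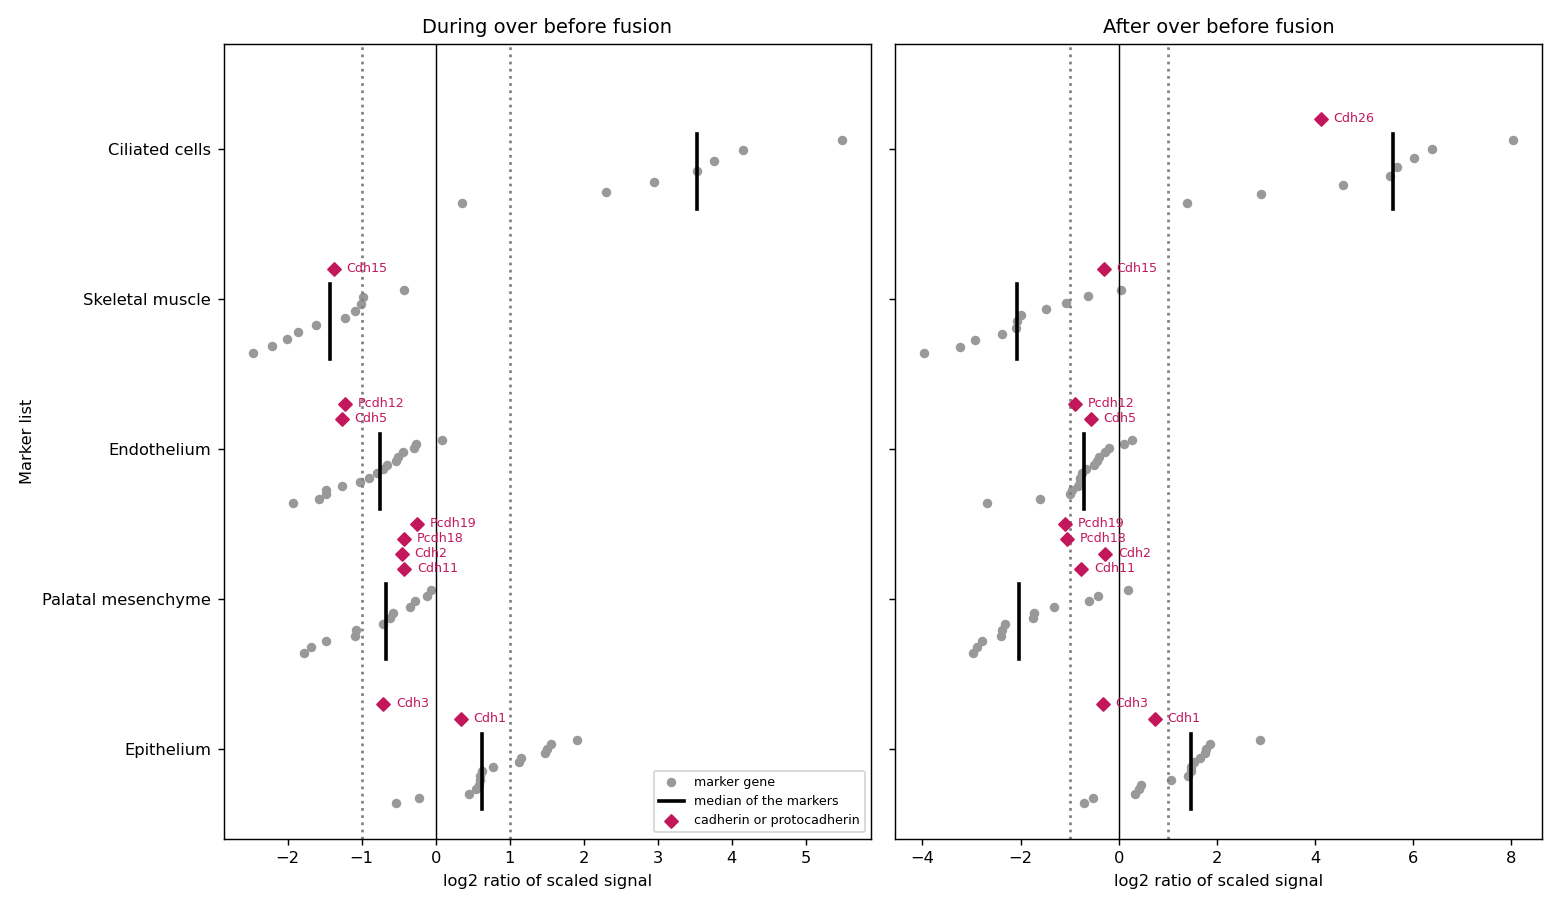
Log2 ratio of scaled signal during over before fusion (left) and after over before fusion (right) for the marker genes of 5 cell types (grey points, with their median as a bar) and for cadherins and protocadherins placed beside them (diamonds), 1 array per stage. Dotted lines mark 2-fold; *Cdh5* and *Pcdh12* lie left of the endothelial median during fusion, *Cdh3* lies on the other side of 0 from the epithelial median, and the *Cdh26* and other bounds are drawn at their bound.

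Of the 5 remaining cadherins, 3 were above the floor on at least 1 array. *Cdh26*, a cadherin of epithelial cells outside the classical groups, had a signal of 1.67 before fusion, 7.44 during and 334.9 after it, the first 2 under the floor. It was at least 17.3-fold higher after than before and at least 25.2-fold higher after than during fusion, and it passed 2-fold in both under all 9 alternatives and 4-fold in both with the main setting. It was read by 1 probe set, so no second one could be set beside it. The 8 ciliated cell markers with a ratio were all over 2-fold higher after than before fusion (against 12.9% of all genes), with a median log2 ratio of 5.60. During fusion 6 of 7 were over 2-fold higher, against 5.78% of all genes. The summed signal of the list was 212 before, 2870 during and 16231 after fusion. *Foxj1*, the transcription factor of motile cilia, was under the floor (3.90) before fusion and had 262.5 during and 979.9 after it. *Foxj1* was therefore above the floor during fusion while *Cdh26* was not. The part of ciliated cells, or of any other epithelium, in the *Cdh26* signal was not tested. *Cdh13*, T-cadherin, which is held by a lipid anchor and lacks a tail, had 65.4, 66.1 and 129.6. It was 1.98-fold higher after than before fusion (log2 0.99), and its other measured probe sets gave 0.88 and at least 0.83. It was past 2-fold with the signals as deposited (log2 1.16) and with one median (1.02). *Cdh23*, a cadherin of hair cell tip links, had 31.8, 7.26 and 16.4 and was at least 2.39-fold lower during fusion and 1.94-fold lower after it, near the floor, and the first bound was at log2 -0.98 with the signals as deposited.

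The δ2 protocadherins, several of which recruit the WAVE complex that drives actin assembly through their tails, included *Pcdh8* and *Pcdh17*, each past 2-fold in both of its probe sets. All 5 were above the floor on at least 1 array. *Pcdh8*, a protocadherin that drives sorting and the internalization of cadherin, had a signal of 77.9 before fusion, 274.7 during and 70.7 after it. It was 3.53-fold higher during than before fusion, ranking 126 of 12124 genes, and 3.88-fold lower after than during fusion, ranking 12753 of 12797. Its other probe set had 98.4, 201.8 and 56.6, with log2 ratios of 1.04 and -1.83 beside 1.82 and -1.96. Both probe sets peaked during fusion by over 2-fold on either side. Both steps of the gene held under all 9 alternatives, none of which took the second probe set by itself. The identifier of the second probe set carries the mark for probes that can bind other transcripts. Before and after fusion differed by 1.10-fold (log2 -0.14, and 0.04 with the signals as deposited).

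*Pcdh17* went the other way. It had a signal of 241.0 before fusion, 75.9 during and 88.6 after it, 3.17-fold and 2.72-fold lower than before. Its other probe set had 176.2, 67.3 and 55.6, 2.62-fold and 3.17-fold lower. Both probe sets were over 2-fold lower at both later stages. Both calls of the gene held under all 9 alternatives, none of which took the second probe set by itself. *Pcdh18* had 420.9, 312.9 and 202.5 and was 1.35-fold lower during fusion and 2.08-fold lower after it. Its other probe sets gave log2 ratios of -0.72 and -1.42 during and -0.33 and -0.87 after fusion, so all 3 were lower at both stages while only 1 passed 2-fold in each. *Pcdh19*, a protocadherin that works together with N-cadherin, had 212.2, 178.6 and 99.2, 1.19-fold and 2.14-fold lower. Its 3 probe sets had log2 ratios of -1.10, -0.92 and -0.72 after fusion. The call after fusion was lost for *Pcdh18* and for *Pcdh19* with the deposited signals and with both medians over probe sets. *Pcdh10* had 36.3, 40.5 and 6.71, the last under the floor, and was at least 2.49-fold lower after than before and at least 2.78-fold lower after than during fusion. Of its other probe sets 2 were lower (log2 -0.57 and, as a bound, -0.77) and 1, under the floor before, was at least 1.05-fold higher. Both calls were lost with the median over its measured probe sets. The median over the group was -1.10 for after over before fusion, from -1.47 to -0.92 across the scalings. Of the 5 members, 4 were over 2-fold lower (2 to 4 across the scalings), against 9.92% of all genes. During fusion the median was -0.25, and above 0 (0.03) with the signals as deposited.

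**Figure D4:**
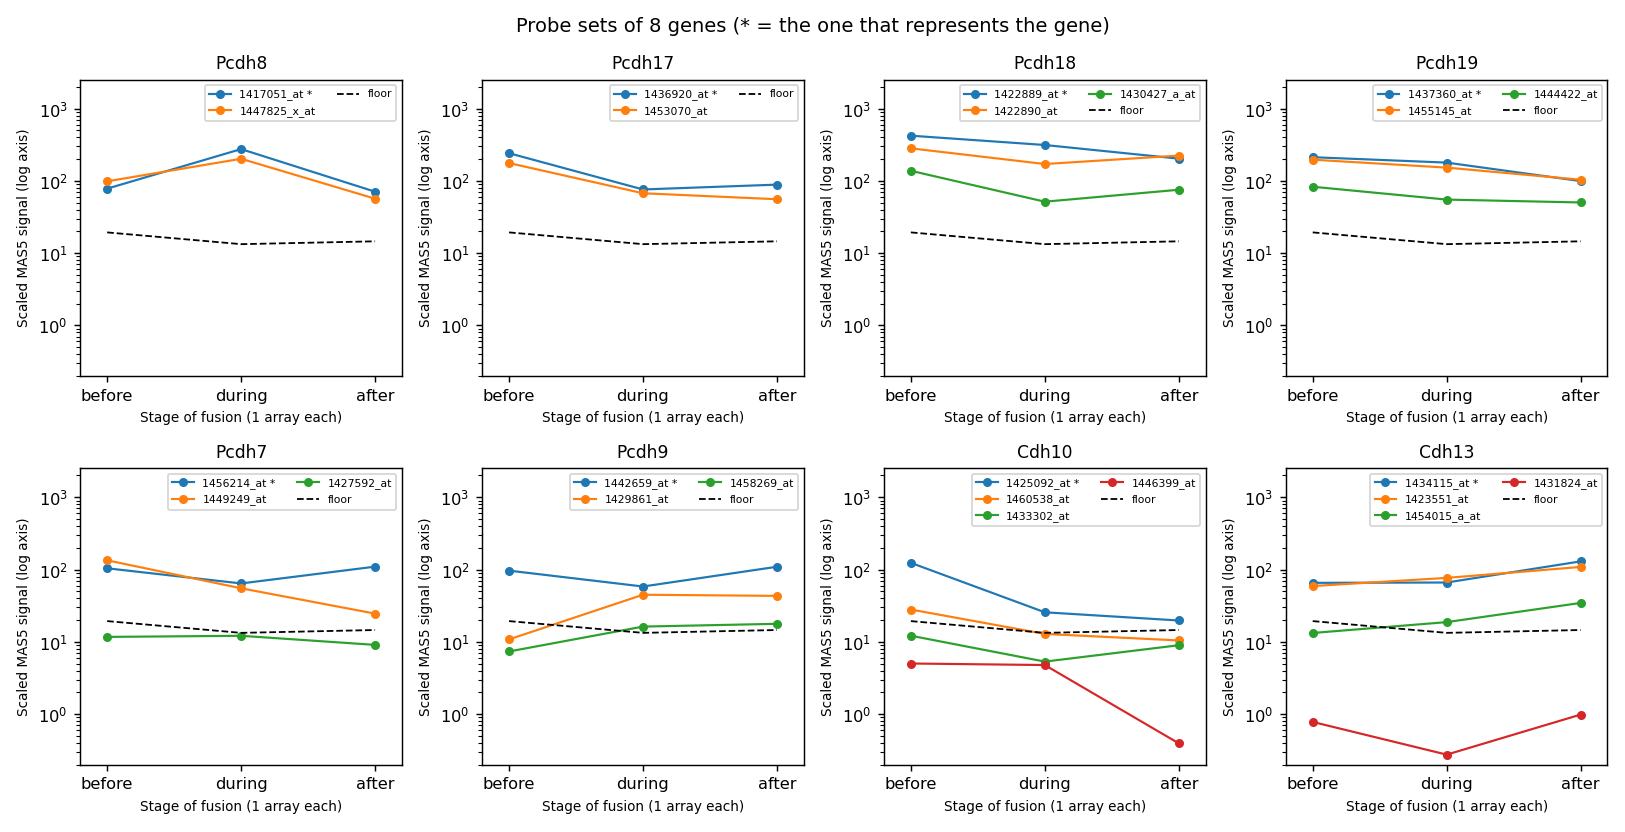
Scaled MAS5 signal (log axis) of every probe set of 8 members by stage, with 1 array per stage and the floor as a dashed line. Both probe sets of *Pcdh8* peak during fusion and both of *Pcdh17* lie lower at both later stages, whereas those of *Pcdh7* part after fusion and those of *Pcdh9* have opposite signs during it.

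No δ1 protocadherin passed 2-fold in its main probe set. *Pcdh7* had a signal of 104.0 before fusion, 64.2 during and 109.6 after it, with log2 ratios of -0.70 and 0.08, while its other measured probe set had 134.1, 55.0 and 24.6, 2.44-fold and 5.46-fold lower. *Pcdh9* had 96.5, 58.2 and 109.2, 1.66-fold lower during and 1.13-fold higher after fusion, while another of its probe sets had 10.8, under the floor, and then 44.8 and 43.2, which is higher by at least 2.32-fold and then 2.23-fold. Both probe sets of *Pcdh7* were thus lower during fusion and both of *Pcdh9* higher after than before it, while their signs differed in the other ratio to before fusion. *Pcdh1* had 30.3, 32.1 and 46.0, and *Pcdh11x* had 20.2 before fusion and was under the floor later. *Pcdh20*, which belongs to neither δ group, had 42.6, 17.0 and 26.9 and was 2.51-fold lower during fusion and 1.58-fold lower after it. Its other probe set was at 34.9 before and under the floor later, at least 2.62-fold and at least 2.40-fold lower. Both probe sets of *Pcdh20* were therefore over 2-fold lower during fusion.

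The clustered protocadherins with a probe set of their own were 22 of the β cluster and *Pcdhgc4*, and 16 of these 23 were above the floor on at least 1 array. None of the 15 with a ratio was past 2-fold during fusion, where 5.78% of all genes were higher and 3.36% lower. After it 2 of the 16 with a ratio were over 2-fold lower, against 9.92% of all genes. *Pcdhb22* had a signal of 63.8 before fusion, 49.5 during and 22.4 after it, 1.29-fold and 2.85-fold lower, and the second passed 2-fold under all 9 alternatives. It was also 2.21-fold lower after than during fusion. *Pcdhb8* had 29.3 and 28.7 and was under the floor after fusion (9.96), at least 2.01-fold lower, a bound that lay under 2-fold in 4 of the 9 alternatives. *Pcdhb17* and *Pcdhb7* were among the 10 members of highest mean signal. *Pcdhb17* had 150.0, 121.5 and 92.7, 1.23-fold and 1.62-fold lower. *Pcdhb7* had 99.7, 109.6 and 86.5, with log2 ratios of 0.14 and -0.20. No other was past 2-fold in its main probe set, but some had only a bound, such as *Pcdhb5*, at least 1.77-fold lower, and *Pcdhb12*, at least 1.32-fold higher during fusion. The dimmer probe set of *Pcdhb21* was at least 2.13-fold lower after than before fusion, where its main one was 1.65-fold lower. Of the clustered members with a ratio, 10 of 15 were lower during and 12 of 16 after fusion, with medians of -0.29 (0.02 with the signals as deposited) and -0.33 (from -0.73 to -0.15 across the scalings). Members of the cluster are close in sequence, and probes of one can bind transcripts of another.

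Genes that work with the cadherins were taken from lists of partners. Over all genes with a ratio, 5.78% were over 2-fold higher and 3.36% lower during fusion, and 12.9% and 9.92% after it. Of 23 catenins and junction partners, 22 had a ratio to before fusion. Of these 1 was over 2-fold higher during fusion, the adhesion gene *Nectin4* (65.0, 141.2 and 93.0, 2.17-fold), and 1 was lower, the neural α-catenin gene *Ctnna2* (30.1 before and under the floor later, at least 2.26-fold and at least 2.07-fold). After fusion 3 were lower: *Ctnna2*, *Vezt* of adherens junctions (2.26-fold) and *Tes* of actin fibres (2.15-fold). *Nectin1* was at least 2.47-fold higher after than during fusion. The core genes of the junction stayed within 2-fold: β-catenin (*Ctnnb1*) had 7969, 6736 and 6209 and αE-catenin (*Ctnna1*) 1974, 2167 and 2332. Of 9 repressors of cadherin transcription none passed 2-fold during fusion, and 3 were lower after it, *Twist2* (2.14-fold), *Tcf3* (2.41-fold) and *Tcf4* (2.18-fold). *Snai2* had 1985, 1977 and 1182, and the median of the list after fusion was -0.64. Of 8 genes of cadherin shedding and turnover with a ratio none passed 2-fold at either stage, and the brightest were *Arf6* (1796, 2279 and 2779) and *Rab11a* (1416, 2061 and 2270), which act in endocytosis and recycling.

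Among 11 partners of the δ protocadherins, *Wasf1* of the WAVE complex had 388.6, 211.2 and 135.8 and was 2.86-fold lower after fusion. *Dab1*, an adaptor of reelin signaling, had 52.3, 28.6 and 21.2 and was 2.47-fold lower, and *Cyfip2* of the WAVE complex was 2.09-fold higher after than during fusion. Their brightest members, *Ppp1ca* (3989, 3066 and 2353) and *Brk1* (1791, 1864 and 1614), stayed within 2-fold. Of 13 regulators and effectors of the clustered protocadherins, the kinase gene *Ptk2b* was higher at both later stages (21.5, 106.4 and 97.6, 4.95-fold and 4.54-fold) and *Dnmt3b*, which methylates DNA, was 2.28-fold lower after fusion. *Rad21* of cohesin (1170, 1236 and 1331) and *Smc1a* (1015, 705.2 and 750.0) did not pass 2-fold. Of 16 other genes of the superfamily, 14 had a ratio for after over before fusion. Of these 5 were over 2-fold higher, against 12.9% of all genes. They were *Fat2* (2.05-fold, and 2.13-fold during), the planar polarity gene *Celsr1* (2.43-fold), and *Cdhr1*, *Cdhr3* and *Cdhr4* (at least 3.54-fold, 6.51-fold and 14.3-fold). The last 3 were also over 2-fold higher after than during fusion. *Cdhr5* (at least 2.05-fold) and *Clstn2* (2.10-fold) were lower after fusion, 2 of the same 14 against 9.92% of all genes. *Fat4* was 2.07-fold lower after than during fusion. *Cdhr3*, known from ciliated cells of the airway, was under the floor before and during fusion and at 126.0 after it, as *Cdh26* was under the floor on the same 2 arrays.

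Genes most alike in pattern were sought among 11844 genes above the floor on each array, by the distance between log2 signals centred on the mean of the 3 arrays. The nearest 3 were *Slc2a1*, *Gnl2* and *Parp6* for *Cdh1*, *Eif1ad*, *Scnn1b* and *Tbc1d22b* for *Cdh2*, *Zmat5*, *Lmf2* and *Ascc2* for *Cdh3*, *C1qtnf1*, *Psat1* and *Pcdh20* for *Cdh5*, and *Gas1*, *Bub1* and *Ctbp1* for *Cdh11*. Their distances were 0.0057 to 0.066 on the log2 scale. With 3 arrays such a likeness is common: 37 genes lay within 0.2 of *Cdh5* and 1022 of *Cdh11*. *Gas1*, for example, had 3438, 2559 and 2038 where *Cdh11* had 3134, 2337 and 1849.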

How the data were processed

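RNA from palatal tissue was hybridized to 3 Affymetrix arrays, 1 per stage. The authors computed the signals with MAS5.0 before deposit, so the deposited values are linear intensities, 1 per probe set. RNA came from the RNeasy Plus Micro kit by the labels and from Trizol by the paper. Hours in culture were taken from the paper. Depth does not apply to arrays, and the number of arrays limits the precision.

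Of 45037 probe sets other than controls, 34945 named 1 gene and 932 several. Of the probe sets that named 1 gene, 34741 were matched by gene ID to RefSeq (GRCm38.p6) for names. The trimmed means, without the outer 2% on each side, were 123.6, 150.0 and 139.7 in stage order, and the arrays were brought to their common value. The floor was the 95th percentile of 83 receptor probe sets. A gene was counted when its ratio or bound passed 2-fold, the fold the study used. No test was run. The steps were tested on simulated data. Python 3.11.15, numpy 2.4.6, pandas 2.3.3 and matplotlib 3.10.9 were used.

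The members and the lists were chosen with earlier results of these data known. The 22 lists, which include the groups of members other than the clustered protocadherins, were set from general knowledge. The clustered protocadherins were grouped by gene symbol. Named genes were the members past 2-fold, the 10 brightest, *Cdh1* to *Cdh5*, *Cdh11* and *Cdh15*, list members past 2-fold with up to 2 of the brightest others, and the 3 genes most like each of 5 cadherins. Other genes named were chosen after their values were seen. Alternatives were the deposited signals, one median, quantile normalization, hybridization controls, poly-A controls, a floor at each array's median, no floor, the median over all probe sets of a gene, and 4-fold. The median over measured probe sets was added after seeing the data. 9 of these 10, all but 4-fold, gave ratios for single genes. Other experiments of the study were not used here.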

Additional observations from a re-analysis of the deposited data

Results flagged for a closer look

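6 probe sets name several *Pcdha* genes at once and so belong to no single member. Of these, 2 that name 14 genes each were above the floor on all 3 arrays, a signal of the α cluster that the comparisons do not use. One had 74.5 before, 48.8 during and 90.5 after fusion. The other had 41.7 before, 19.7 during and 28.2 after fusion, 2.12-fold lower during than before. Which of the 14 genes gave the signal cannot be read from these probe sets.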

How the results depend on the processing

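Most calls of members past 2-fold were lost under at least 1 alternative. *Cdh26* (after over both), *Pcdh8* (during over before and after over during), *Pcdh17* (both later stages), and *Cdh6* and *Pcdhb22* (after over before) kept their calls under all 9 alternatives for single genes, and no called ratio changed sign. Each other call was lost in 1 to 5 of them. A floor at each array's median ended those of *Cdh4*, *Cdh9*, *Cdh15*, *Cdh23*, *Pcdh10*, *Pcdh12*, *Pcdh20*, *Pcdhb8* and, for after over during, *Pcdhb22*, and the median over all probe sets those of *Cdh4*, *Cdh5*, *Cdh10*, *Cdh23*, *Pcdh10*, *Pcdh12*, *Pcdh18*, *Pcdh19* and, for after over during, *Cdh6*. By construction neither of these 2 settings shows such a ratio to be under 2-fold where signals lie under the floor: the higher floor weakens a bound, and a probe set below the floor on each of the arrays compared enters the median at the ratio of the floors, which set the value for *Cdh4* and *Pcdh12* during fusion.

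For during over before fusion, where 1 member was higher and 9 were lower, the signals as deposited gave 2 and 5, no floor gave 4 higher, a floor at each array's median gave 3 lower, the median over all probe sets gave 4 lower, and 4-fold gave 0 and 1. For after over before (1 and 9), the signals as deposited, one median and no floor each gave 2 higher, and the poly-A controls gave 16 lower (with 22.6% of all genes lower, against 9.92% in the main setting), the median over all probe sets 5 and 4-fold 1. For after over during (2 and 4), the signals as deposited, the hybridization controls, the poly-A controls, a floor at the median and 4-fold each gave 1 higher, one median and no floor each gave 4, and a floor at the median and both medians over probe sets each gave 2 lower, with 0 at 4-fold. The share higher among members past 2-fold in this comparison was 33.3%, against 57.1% with one median and 16.7% with the signals as deposited.

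The median of the members for after over before was -0.85 with the poly-A controls, where that of all genes was -0.47. That for after over during, 0.06, was -0.052 with the signals as deposited, -0.12 with the hybridization controls and -0.046 with the poly-A controls. The cause of these shifts was not tested. With 1 array per stage no sample could be left out. No paired analysis was possible because each stage has 1 array. Members near the floor, such as *Cdh23*, *Pcdhb8* and *Pcdh11x*, are limited by signal over background.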
